A study of Mus musculus with 4 samples.

Results

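The cells described here are *Cdx2*-positive hindgut endoderm cells from the caudal part of the E8.5 mouse embryo. They were chosen by their unique molecular identifiers (UMIs, each of which marks 1 captured transcript). A cell needed at least 2 UMIs of *Epcam*, at least 3 of the 7 endoderm genes *Foxa1*, *Foxa2*, *Nepn*, *Apela*, *Cldn7*, *Apom* and *Rbp4*, at least 1 UMI of *Cdx2*, and none of the ectoderm gene *Tfap2a* or the notochord gene *Noto*. The cells were first filtered to those with 3000 or more genes, 7500 or more UMIs and a mitochondrial share no higher than 7%. Of the 20198 cells left, 1301 met these criteria, which is 6.44%. They numbered 276 and 248 in WT libraries 1 and 2, and 394 and 383 in Grhl3-null libraries 1 and 2. The levels of these 11 genes chose the cells, so they are given as a description only.

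Embryos came from intercrosses of *Grhl3*+/- mice on a C57BL/6 background and were collected at the stage of 6 to 7 somites. The question was how the loss of *Grhl3*, a transcription factor needed for closure of the neural tube, alters the cells of the caudal embryo. The caudal parts of 5 WT embryos (both *Grhl3* alleles intact) and of 3 Grhl3-null embryos (constitutive loss in every tissue) were dissociated with trypsin, the cells were pooled by genotype, and 2 droplet reactions were run on each pool. Except where genotype is tested with sex as a term, each p-value between the genotypes therefore compares 2 pools by the spread between repeated reactions. That spread holds no differences between embryos. The embryos, their exact stage and the level of the cut cannot be told apart from the genotype.

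The hindgut is the caudal part of the primitive gut. It forms from definitive endoderm, into which cells of the visceral endoderm, the early extraembryonic layer that secretes apolipoproteins and carrier proteins, are known to mix. *Cdx2* sets caudal gut identity, and Wnt, Fgf and retinoic acid signals at the tail end of the embryo act on the Hox genes, which give cells their position along the body axis.

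Summed over the hindgut cells of a library, 15056642 and 13738150 UMIs were counted in WT against 18736116 and 18589590 in Grhl3-null. The median was 44722.5 and 44748.5 UMIs per cell in WT against 38722 and 38778 in Grhl3-null, whereas the other cells had 33154 and 34325 in WT and 37925.5 and 35393 in Grhl3-null. No cell barcode was shared between libraries among hindgut cells, and 36 were shared among all filtered cells. The pools differed in sex. Of the WT hindgut cells, 80 and 60 were called male and 157 and 150 female by *Xist* and Y-linked UMIs, against 206 and 205 male and 135 and 120 female cells in Grhl3-null. The remaining 188 cells were not called. The sexes are different embryos of a pool, and many of the values are therefore also given within each sex or with sex as a term. With sex as a term, the spread also holds differences between the sexes in the genotype effect. The male and female sums of a library share that library. The test of the difference between the sexes rests on the spread between repeated reactions only. It cannot tell a difference between the sexes from a difference between embryos.

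The label was checked against markers outside the criteria. *Krt8* and *Krt18*, keratins of simple epithelia, had a UMI in 98.9% and 99.2% of the 1301 cells. In endothelium, which should lack them, the shares were 40.8% and 44.6% of 633 cells, at a median of 38986 UMIs per cell against 40737 in the hindgut. With each cell thinned to 7500 UMIs, *Krt8* was found in 91.2% of hindgut and 17.1% of endothelial cells. *Shh*, a ligand secreted by gut epithelium, was found in 58.9% of hindgut and 1.58% of endothelial cells. Among markers of more rostral endoderm, *Otx2* had a UMI in 0.846%, *Nkx2-1* in 0.231% and *Pdx1* in 1.92% of the cells. The 13 foregut genes of the list together had 128 and 145 CPM (UMIs of a gene among 1000000 UMIs of the class) in the WT and 109 and 109 CPM in the Grhl3-null libraries, and the most abundant, *Mnx1*, had 37.3 and 39.5 CPM against 31.5 and 31.0 CPM. Across hindgut cells *Mnx1* rose with *Cdx2* (Pearson's r 0.38, mean of the 4 libraries), so its level cannot be read as foregut content. The germ cell gene *Dppa3* was found in 0.692% of the cells. The endoderm regulator *Sox17* does not separate the 2 classes, since it was found in 54.6% of hindgut and 70.6% of endothelial cells. *T*, a gene of the notochord and the tailbud, was found in 63.8% of the hindgut cells, although cells with *Noto* had been left out.

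Cells near the limits were few on some criteria and many on others. *Cdx2* had a median of 10 UMIs per cell, from 1 to 73. There were 53 cells with 1 *Cdx2* UMI, and 26 cells that met every other criterion had none. At the limit of *Epcam*, 34 cells had 2 UMIs and 85 cells outside had 1. At the limit of the endoderm genes, 156 cells had 3 and 150 cells outside had 2. A single UMI of *Tfap2a* kept out 50 cells, and a single UMI of *Noto* kept out 13.

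Outside the genes used for the choice, the transcripts most enriched in hindgut cells over all other cells included those of several secreted proteins. *Spink1*, a trypsin inhibitor, had 396 CPM in hindgut cells and 3.86 CPM in the others, a ratio of 45.3 with 5 CPM added to both sides. *Ttr*, the carrier of thyroxine, followed with a ratio of 35.5, then *Apoa1* with 15.6, the glutathione peroxidase *Gpx2* with 15.0, the carboxypeptidases *Cpm* with 14.6 and *Cpn1* with 14.5, and *Afp*, the fetal serum protein, with 14.4. Epithelial genes were among the next, with the membrane protease *Tmprss2* and the keratin *Krt19* both at 13.9, the polarity gene *Crb3* at 12.5 and the claudin *Cldn6* at 10.8. The ligands *Ihh* and *Shh* had ratios of 10.1 and 9.64. Of the genes that chose the cells, *Nepn* had a ratio of 60.7 and *Rbp4* of 24.8, whereas *Cdx2*, which is also a gene of caudal mesoderm and neural tissue, had a ratio of 1.27.

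Hindgut cells took a larger share of the Grhl3-null libraries. The share was 5.06% (95% Clopper-Pearson interval 4.49 to 5.67) and 4.85% (4.28 to 5.47) in the WT libraries. It was 8.14% (7.38 to 8.94) and 8.01% (7.26 to 8.82) in the Grhl3-null libraries. The intervals cover counting error only. Both Grhl3-null libraries lay above both WT libraries. The means were 4.95% ± 0.147 and 8.07% ± 0.0893 (SD, n = 2 each), a difference of 3.12 percentage points or 1.63-fold. The exact two-sided permutation test over the 4 libraries gave p = 0.333, the smallest value it can give with 2 libraries against 2. Among male cells the difference was 3.31 points and among female cells 2.69 points. Shares of one library are tied to each other. Surface ectoderm also took a larger share, 3.89% against 3.04%, as did endothelium with 3.54% against 2.76%, while notochord took 1.03% against 1.35%.

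Several of the endoderm genes that admit a cell were themselves higher in Grhl3-null hindgut cells, so the share was also computed with at least 2 of *Foxa2*, *Apela* and *Cldn7*, whose levels were closer between the genotypes, in place of 3 of the 7 genes. This choice was made after the levels were seen. The shares were then 5.17% ± 0.177 in WT and 8.05% ± 0.0601 in Grhl3-null (SD, n = 2 each), a difference of 2.88 points. Of all cells that met the criteria other than *Cdx2*, 98.4% ± 1.18 in WT and 97.9% ± 0.481 in Grhl3-null (SD, n = 2 each) had *Cdx2*, a difference of -0.498 points (exact permutation p = 0.667). Without WT replicate 2 this difference was 0.338 points, so no direction can be read from it.

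**Figure D1:**
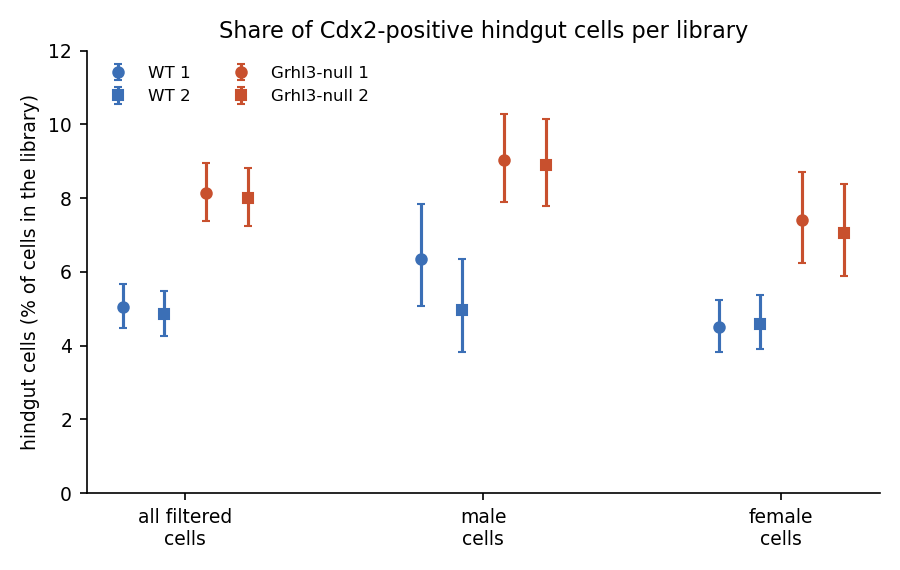
Share of Cdx2-positive hindgut cells in each library, in percent of all filtered cells, of male cells and of female cells. Points are the 2 WT (blue) and 2 Grhl3-null (red) libraries and bars are 95% Clopper-Pearson intervals. Both Grhl3-null libraries lie above both WT libraries in each of the 3 sets.

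The genes used for the choice differed in level between the genotypes to different extents. *Nepn*, a matrix proteoglycan of the hindgut and midgut, had 311 and 280 CPM in WT and 568 and 617 CPM in Grhl3-null. *Rbp4*, the carrier of retinol, had 185 and 215 CPM in WT and 408 and 430 CPM in Grhl3-null. *Foxa1*, a pioneer factor of endoderm, had 78.3 and 73.2 CPM in WT and 111 and 110.1 CPM in Grhl3-null. The Grhl3-null libraries were above the WT libraries for all 3, in male and in female cells alike for *Nepn* and *Rbp4*. *Cdx2* itself had 262 and 255 CPM in WT and 218 and 240 CPM in Grhl3-null, and the pioneer factor *Foxa2* had 80.4 and 78.5 CPM against 75.5 and 77.6 CPM. *Cdx2*, *Foxa2*, *Epcam*, *Apela* and *Cldn7* differed by at most 0.21 in size on the log2 scale, whereas *Nepn* and *Rbp4* differed by 0.97 and 1.03.

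*Grhl3* (chromosome 4 of mm10, 135541888 to 135573630, minus strand) was checked first in the comparison of genotypes. WT libraries 1 and 2 had 18 and 15 UMIs of it, or 1.15 CPM, and neither Grhl3-null library had any (0 and 0). A count of 0 among 37325706 UMIs allows up to 0.0804 CPM (3 counts over the group), so *Grhl3* was at least 14.3-fold lower. Its paralogue *Grhl2*, the grainyhead factor of simple epithelia, had 20.9 and 20.5 CPM in WT and 21.3 and 23.3 CPM in Grhl3-null, a log2 fold change of 0.07 ± 0.08 (SE; adjusted p = 0.60 by edgeR). The *Grhl3* counts matched the labels of all 4 libraries. In WT, 5.43% (95% Clopper-Pearson interval 3.07 to 8.81) and 5.65% (3.12 to 9.29) of hindgut cells had a *Grhl3* UMI, and in endothelium 0.680% (0.0172 to 3.73) and 1.38% (0.167 to 4.89). The hindgut share was above the endothelial share in both libraries, with intervals that overlapped, and the part of free RNA in these UMIs was not tested.

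Over all genes, 2277 of 13243 tested genes (17.2%) differed between the genotypes at an adjusted p under 0.05 by edgeR's quasi-likelihood test, 1061 higher (8.01%) and 1216 lower (9.18%) in Grhl3-null. Of these, 120 were higher by 1 or more on the log2 scale (0.906%) and 58 lower by as much (0.438%). Without a test, the CPM of the 2 WT and 2 Grhl3-null libraries did not overlap for 57.8% of the 13243 genes, with both Grhl3-null libraries above for 34.7% and below for 23.1%, so an absence of overlap is common. With library size alone as the scale, the split was 1421 higher and 860 lower, and the median of all genes moved by under 0.1 on the log2 scale. With sex as a term on sums split by sex, 825 of 12402 genes (6.65%) were called, 393 higher (3.17%) and 432 lower (3.48%), and 814 of them were among the 2277. In male cells alone 1518 of 11975 genes (12.7%) were called, 678 higher (5.66%) and 840 lower (7.01%). In female cells alone 986 (8.23%) were called, 598 higher (4.99%) and 388 lower (3.24%).

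Genes near *Grhl3* were among those with the largest differences. Of 219 other tested genes within 10 Mb of *Grhl3*, 8 (3.65%) were called and differed by 1 or more on the log2 scale, against 177 of 13236 tested genes over all (1.34%), and 4 of the 8 had a mean under 3 CPM. *Stmn1*, a regulator of microtubules, had 1272 and 1236 CPM in WT and 405 and 464 CPM in Grhl3-null. *Hdac1*, a histone deacetylase, had 177 and 169 CPM in WT and 78.9 and 79.9 CPM in Grhl3-null. All other cells differed by as much, with log2 fold changes of -1.58 for *Stmn1* and -1.23 for *Hdac1* against -1.56 and -1.16 in the hindgut. Part of the transcript of both genes has a near-identical copy elsewhere in the genome, so their reads may be split. *Stmn1* has 99.8% identity to *Gm11223* over 450 of 1060 bases, and *Hdac1* 99.4% to *Gm10093* over 1444 of 2038 bases. *Gm11223* was not among the counted genes. *Gm10093* rose from 1.26 and 1.16 CPM to 51.2 and 46.1 CPM, and *Gm10036*, with 99.3% identity to the ribosomal protein gene *Rpl11*, from 4.85 and 3.71 CPM to 327 and 290 CPM. The levels of these genes and of *Gm10282*, a 99.3% copy of *Hmgn2*, are therefore uncertain. Whether the sequence of chromosome 4 around the disrupted allele differs between the genotypes was not tested.

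The Hox genes of groups 9 to 13, which mark the most caudal levels of the body, were lower in Grhl3-null hindgut cells. Of 12 tested, 10 fell and none rose, with a median log2 fold change of -1.52 against 0.00 over all genes tested. Of 11 tested with sex as a term, 7 fell (median -1.33). *Hoxc10* (chromosome 15 of mm10, 102966796 to 102971893) had 66.5 and 78.6 CPM in WT and 5.71 and 7.21 CPM in Grhl3-null. It fell by 3.52 ± 0.11 (log2, SE; adjusted p = 9.2e-10 by edgeR). The WT libraries were both about an order of magnitude above the Grhl3-null libraries. *Hoxa10* had 60.9 and 65.0 CPM in WT and 23.4 and 20.7 CPM in Grhl3-null, a fall of 1.55 ± 0.07 (adjusted p = 1.7e-12 by edgeR). *Hoxd10* fell from 8.43 and 10.5 CPM to 1.49 and 1.24 CPM, and *Hoxa11* from 4.98 and 5.75 CPM to 0.427 and 0.269 CPM. *Hoxd13*, a gene of the end of the hindgut and the cloaca, had 8.30 and 9.46 CPM in WT and 3.63 and 2.80 CPM in Grhl3-null. The genotypes did not overlap for any of these 5 genes, as for 57.8% of all genes tested.

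The fall of the group 10 genes held in both sexes. In male cells *Hoxc10* had 21.8 and 23.9 CPM in WT and 2.80 and 1.96 CPM in Grhl3-null, and in female cells 92.0 and 115 CPM in WT and 10.0 and 15.4 CPM in Grhl3-null. Female WT cells had the highest level, and within each genotype the female cells were above the male cells. With sex as a term, *Hoxc10* fell by 3.09 (adjusted p = 4.8e-07 by edgeR) and *Hoxa10* by 1.33 (adjusted p = 0.00022 by edgeR). *Hoxd11*, which fell by 3.96 over all cells, lost its call without Grhl3-null replicate 1 (-3.90, adjusted p = 0.32) or 2 (-4.03, adjusted p = 0.28), both by edgeR, and its level is uncertain because part of its transcript has a copy of 99.6% identity, *Gm28309*. Without any 1 library, 9 of the 10 calls were kept.

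Hox genes of lower groups had smaller median falls than the caudal groups, a difference that was not tested. Of 11 tested genes of groups 1 to 4, 6 fell and none rose, with a median of -0.29, and only *Hoxb2* kept its call without any 1 library. Of the 11, 3 fell with sex as a term (median -0.33). Of 11 tested genes of groups 5 to 8, 5 fell and *Hoxb6* rose, with a median of -0.19. With sex as a term 3 fell and none rose (median -0.19). *Hoxb6* lost its call without Grhl3-null replicate 2 or WT replicate 1 (adjusted p = 0.20 and 0.11 by edgeR), and *Hoxa6* without Grhl3-null replicate 1 or WT replicate 1 (adjusted p = 0.13 and 0.077 by edgeR). *Hoxc8* had 153 and 155 CPM in WT and 166 and 174 CPM in Grhl3-null, and *Hoxa7* had 131 and 123 CPM against 130 and 133 CPM, neither past the test.

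**Figure D2:**
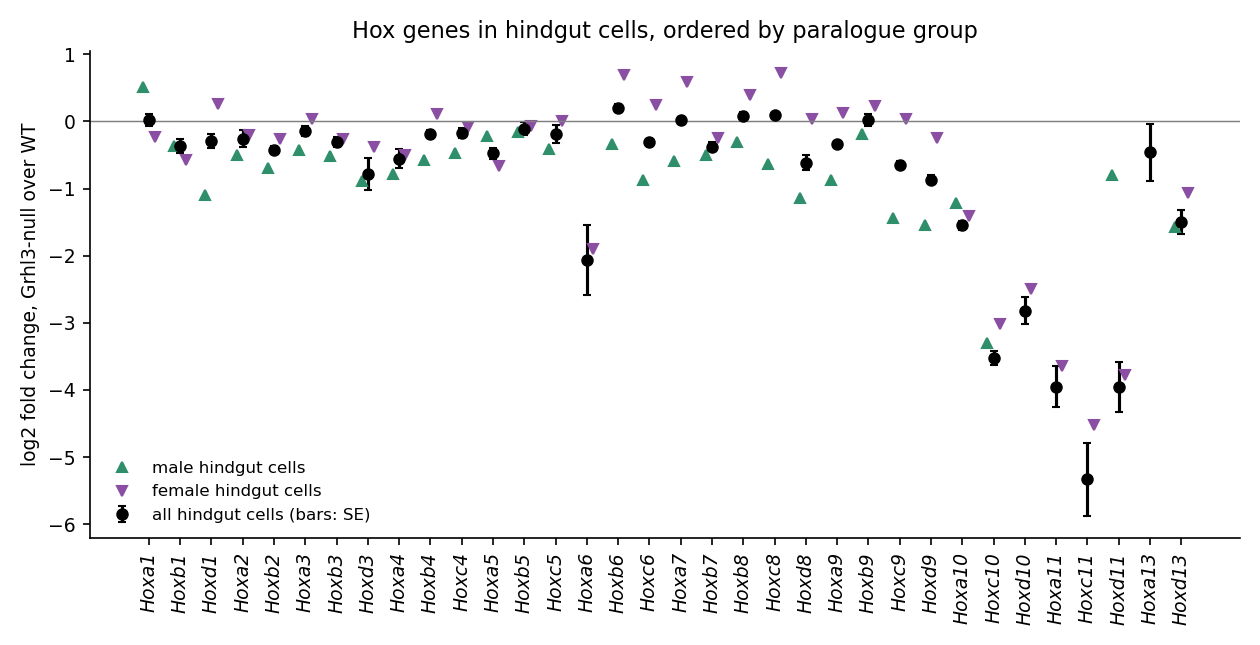
Log2 fold change (Grhl3-null over WT) of each tested Hox gene in hindgut cells, ordered by paralogue group along the x axis. Black circles with SE bars are all hindgut cells, green and purple triangles male and female cells, where tested. The group 10 and 11 genes lie far below 0, and Hoxc6, Hoxa7, Hoxc8 and Hoxc9 lie below 0 in male cells and above 0 in female cells.

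At group 9 the male and female cells, which come from different embryos, differed. *Hoxc9* had 90.7 and 99.3 CPM in WT and 61.6 and 62.6 CPM in Grhl3-null over all cells, a log2 fold change of -0.65 ± 0.05 (adjusted p = 2.8e-08 by edgeR). In male cells it had 92.4 and 108 CPM in WT and 38.0 and 38.1 CPM in Grhl3-null. The female cells had 89.5 and 92.8 CPM in WT and 89.5 and 97.0 CPM in Grhl3-null, so the genotypes overlapped there. The difference between the sexes in the genotype effect was -1.48 ± 0.11 (adjusted p = 3.8e-09 by edgeR), and with sex as a term the log2 fold change was -0.64 but not called (adjusted p = 0.35). *Hoxd9* and *Hoxa9* had differences between the sexes of -1.31 (adjusted p = 3.5e-06) and -0.998 (adjusted p = 3.3e-07, both edgeR). Over all genes, 786 of 12402 (6.34%) had such a difference, 362 above 0 (2.92%) and 424 below 0 (3.42%). The list of Hox groups 5 to 8 had 6 of 11 below 0 and none above, with a median of -0.70 against -0.01 over all genes tested.

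Genes of the caudal end were also lower over all hindgut cells. Of 13 tested genes of the Cdx family and the caudal endoderm, 9 were lower in Grhl3-null and none higher, with a median of -0.46. Of all genes, 9.18% were lower and 8.01% higher. In all other cells 10 of 14 were lower too and none higher (median -0.24), where 18.6% of all genes were lower. The hindgut difference was below that of the other cells for 5 of 14 and above it for none, where 4.05% of all genes were below. In male hindgut cells 9 of 12 fell (median -0.97), where 7.01% of all genes fell. In female hindgut cells 1 of 11 fell (median -0.07), where 3.24% of all genes fell. With sex as a term 1 of 12 fell, *Hoxd13* (median -0.49), where 3.48% of all genes fell. *Cdx4*, the paralogue of *Cdx2* expressed at the tail end, had 192 and 169 CPM in male WT cells against 96.2 and 90.6 CPM in male Grhl3-null cells. Female cells had 163 and 174 CPM against 147 and 174 CPM. The genotypes were apart in males and overlapped in females, and the difference between the sexes was -0.95 (adjusted p = 2.2e-05 by edgeR). *Cyp26a1*, the enzyme that breaks down retinoic acid in the tailbud, had 165 and 138 CPM in male WT cells and 58.1 and 71.8 CPM in male Grhl3-null cells. In female cells it had 97.4 and 133 CPM in WT and 133 and 140 CPM in Grhl3-null (difference between the sexes -1.54, adjusted p = 0.042 by edgeR). *T* had 130 and 157 CPM in WT and 99.5 and 113 CPM in Grhl3-null over all cells and did not pass the test (adjusted p = 0.12 by edgeR).

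Signals of the tail end were measured by their ligands and targets. In all other cells 14 of 26 Wnt genes fell and 5 rose, and 9 of 21 Fgf genes fell and 5 rose. Of all genes tested there, 18.6% fell and 17.2% rose. In the hindgut 9.18% of all genes fell and 8.01% rose. Of 25 Wnt ligands, antagonists and targets tested in the hindgut, 8 fell and 3 rose (median -0.15). With sex as a term none was called, at a median of -0.18. *Wnt5a*, a ligand that acts on cell polarity, had 105 and 106 CPM in male WT and 61.4 and 54.0 CPM in male Grhl3-null cells. In female cells it had 109 and 117 CPM in WT and 109 and 108 CPM in Grhl3-null (difference between the sexes -0.88, adjusted p = 3.5e-06 by edgeR). *Rspo3*, which strengthens Wnt signals, fell by 0.61 over all cells from 213 and 221 CPM to 134 and 157 CPM. With sex as a term the log2 fold changes of *Wnt5a* and *Rspo3* were -0.46 and -0.71, with neither called (adjusted p = 0.24 and 0.32 by edgeR). Of 20 tested Fgf ligands, receptors and targets, 8 fell and 2 rose (median -0.10), and with sex as a term *Fgf3*, *Fgf9* and *Fgf18* fell and none rose. *Fgf8* fell by 0.48 from 200 and 212 CPM to 141 and 161 CPM, and *Fgf17* by 0.74 from 70.7 and 74.8 CPM to 41.6 and 47.7 CPM, and with sex as a term their log2 fold changes were -0.53 and -0.75 but neither was called (adjusted p = 0.33 and 0.079 by edgeR). The Fgf receptor gene *Fgfr2* rose by 0.46, from 19.7 and 21.8 CPM to 29.6 and 29.0 CPM, with 18.3 and 22.3 CPM in male WT cells against 37.8 and 40.4 CPM in male Grhl3-null cells, and no rise in female cells (21.7 and 22.3 CPM against 19.7 and 19.1 CPM).

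Among 13 tested genes of retinoic acid handling, 5 rose and 1 fell (median 0.13), where 8.01% and 9.18% of all genes did. The retinol dehydrogenase *Rdh10* rose by 0.63, from 7.64 and 6.19 CPM to 10.8 and 11.1 CPM, and the receptor *Rarb* by 0.74, from 8.90 and 7.21 CPM to 14.1 and 13.6 CPM. In male cells *Rarb* had 8.42 and 6.38 CPM in WT and 19.3 and 18.7 CPM in Grhl3-null, whereas in female cells it had 9.98 and 6.64 CPM and 7.60 and 8.89 CPM. The male libraries were well apart by genotype and the female libraries overlapped. With sex as a term none of the 13 genes was called, at a median of 0.22. The log2 fold changes of *Rdh10* and *Rarb* were then 0.59 and 0.62 (adjusted p = 0.083 and 0.21 by edgeR).

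Of 19 tested Bmp genes, 3 rose and *Bmp4* fell over all cells (median 0.11), where 8.01% and 9.18% of all genes did. In male cells 5 fell and none rose, where 7.01% of all genes fell and 5.66% rose. In female cells 8 rose and none fell, where 4.99% of all genes rose and 3.24% fell. Without Grhl3-null replicate 2, *Bmpr1a* and *Id1* lost their calls (adjusted p = 0.13 and 0.092 by edgeR), and with sex as a term only *Bmpr1a* was called, while *Bmp4* was not (-0.46, adjusted p = 0.14 by edgeR). *Id1*, a target of Bmp signals, had 376 and 490 CPM in male WT and 331 and 348 CPM in male Grhl3-null cells. Female cells had 268 and 278 CPM in WT and 447 and 536 CPM in Grhl3-null. The difference between the sexes for *Id1* was -1.26 (adjusted p = 0.0545 by edgeR), and 5 of 17 Bmp genes passed that test below 0, with a median of -0.70. The 14 tested Hedgehog genes had a median log2 fold change of -0.01, and no call among them was kept without each library in turn or with sex as a term. *Shh* had 105 and 101 CPM in WT and 109 and 97.3 CPM in Grhl3-null, *Ihh* 47.7 and 48.7 CPM against 51.5 and 53.5 CPM, and the receptor *Ptch1* 174 and 170 CPM against 175 and 186 CPM. Of 17 tested genes of planar cell polarity only *Ptk7* was called, falling by 0.38 from 154 and 152 CPM to 118 and 122 CPM.

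Of 14 tested transcription factors of the gut endoderm, 5 rose and 2 fell, with a median of 0.19. With sex as a term 4 of 13 rose and none fell. *Hnf4a*, a regulator of liver and gut genes, had 1.93 and 1.67 CPM in WT and 5.34 and 5.16 CPM in Grhl3-null, a log2 fold change of 1.501 ± 0.21 (adjusted p = 3.0e-05 by edgeR). *Gata6* rose by 0.62, from 41.8 and 40.0 CPM to 65.2 and 63.9 CPM, and *Tcf7l2*, a nuclear partner of Wnt signals, by 0.65, from 44.2 and 45.6 CPM to 73.1 and 71.1 CPM. For these 3 the Grhl3-null libraries were above the WT libraries in both sexes, and all 3 kept their calls with sex as a term (adjusted p = 0.0043, 0.031 and 0.0041 by edgeR). *Gata4* also rose, from 1.59 and 3.35 CPM to 4.80 and 5.49 CPM, but lost its call without WT replicate 1 or Grhl3-null replicate 2. *Sox17* fell by 0.29, from 78.9 and 79.2 CPM to 65.1 and 67.5 CPM, and *Isl1* by 0.63, from 43.5 and 42.8 CPM to 29.8 and 27.4 CPM, and with sex as a term their log2 fold changes were -0.26 and -0.54 but neither was called (adjusted p = 0.28 and 0.24 by edgeR). Of 9 tested foregut genes, *Pax9* (-0.49) and *Mnx1* (-0.33) fell and none rose, where 9.18% of all genes fell and 8.01% rose. The count that fell was 5 without WT replicate 1 and 4 with doublets removed or with cells holding markers of other lineages left out. With sex as a term *Pax9* fell and *Mnx1* was not called (-0.29, adjusted p = 0.073 by edgeR).

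Of 19 tested visceral endoderm genes, 6 rose and 1 fell (median 0.78), where 8.01% and 9.18% of all genes did. Without WT replicate 2, 13 rose, and with sex as a term 2 rose and none fell (median 0.92). *Apoa2*, *Apoe* and *Cited1* lost their calls when 1 library was left out, and 4 of the 7 calls were kept. *Ttr* had 141 and 219 CPM in WT and 437 and 419 CPM in Grhl3-null (adjusted p = 0.16 by edgeR), *Spink1* 215 and 281 CPM against 542 and 481 CPM (adjusted p = 0.12 by edgeR), and *Afp* 71.1 and 31.7 CPM against 123 and 102 CPM (adjusted p = 0.36 by edgeR). None of the 3 passed the test, although their genotypes did not overlap, as those of 57.8% of all genes did not. *Apob*, the backbone of lipoprotein particles, rose by 1.52 ± 0.14, from 17.0 and 17.4 CPM to 56.8 and 44.1 CPM, and by 1.61 ± 0.45 with sex as a term, where it was not called (adjusted p = 0.12 by edgeR). *Lgals2*, a galectin of gut epithelium, rose by 1.27 ± 0.09 from 11.03 and 11.7 CPM to 27.5 and 28.8 CPM, and was above WT in male cells (15.4 and 13.3 CPM against 27.4 and 22.4 CPM) and in female cells (10.2 and 8.27 CPM against 31.1 and 30.9 CPM). *Fgb*, the beta chain of fibrinogen, rose by 1.25 from 7.24 and 4.80 CPM to 15.2 and 14.4 CPM. *Rhox5*, an X-linked gene of the visceral endoderm, had 62.0 and 82.4 CPM in WT and 101 and 84.9 CPM in Grhl3-null and did not pass the test. In female cells *Ttr* had 117 and 142 CPM in WT and 518 and 484 CPM in Grhl3-null, and in male cells 216 and 306 CPM and 440 and 297 CPM, where the genotypes overlapped.

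**Figure D3:**
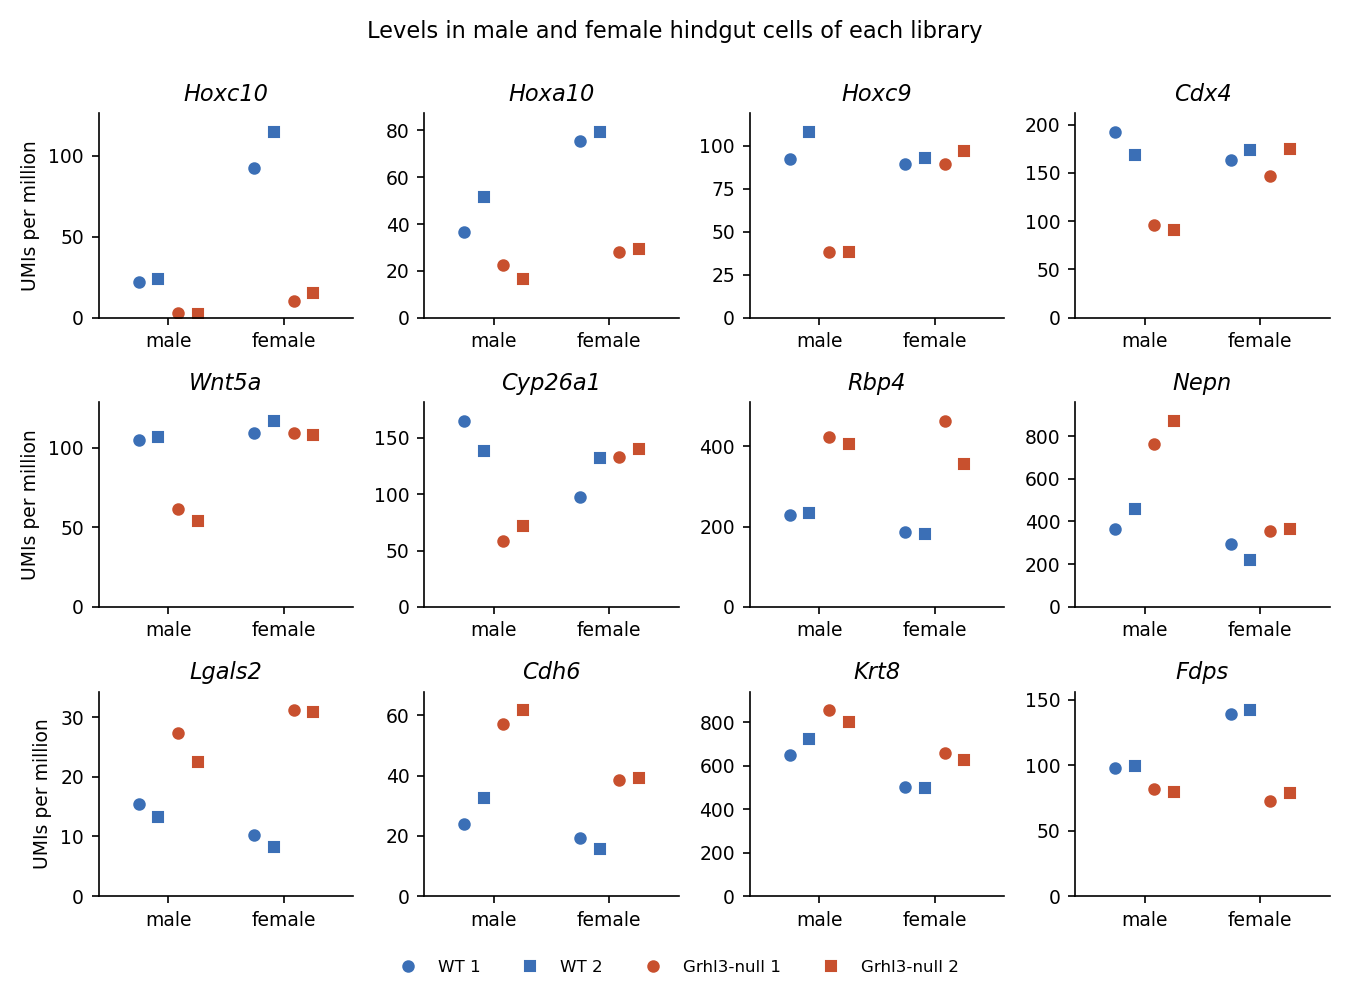
Levels (CPM) of 12 genes in the male and female hindgut cells of each library, WT in blue and Grhl3-null in red. Hoxc10, Hoxa10, Nepn, Rbp4, Cdh6 and Krt8 are apart by genotype in both sexes, whereas Hoxc9, Cdx4 and Wnt5a are apart by more in male cells, and Fdps by more in female cells.

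Other genes were named among those with a mean of at least 10 CPM, where *S100g* had the largest rise apart from the near-identical copies. *S100g*, a calcium carrier of the intestine, rose from 17.999 and 19.4 CPM to 71.6 and 73.3 CPM, a log2 fold change of 1.92 ± 0.07. In female cells it had 10.8 and 10.8 CPM in WT and 86.8 and 78.5 CPM in Grhl3-null. In male cells it had 34.9 and 24.2 CPM against 70.1 and 40.1 CPM and was not called (adjusted p = 0.50 by edgeR), nor was it with sex as a term (log2 fold change 1.88, adjusted p = 0.115 by edgeR). *Cdh6*, a cadherin, rose by 1.13 ± 0.07 (adjusted p = 5.3e-10 by edgeR) from 20.5 and 22.1 CPM to 46.1 and 49.6 CPM, and was above WT in male cells (24.0 and 32.7 CPM against 57.3 and 61.7 CPM) and in female cells (19.4 and 15.5 CPM against 38.4 and 39.1 CPM). The nucleotidyltransferase gene *Fam46a* rose by 1.39 from 15.5 and 15.2 CPM to 41.9 and 40.6 CPM, and the lysophosphatidic acid receptor *Lpar3* by 1.14 from 7.31 and 6.11 CPM to 16.9 and 13.6 CPM. Among genes that fell, the forkhead gene *Foxd1* dropped by 1.33 from 31.4 and 24.4 CPM to 13.1 and 9.74 CPM. The zinc finger gene *Trps1* dropped by 0.98 from 26.8 and 31.4 CPM to 14.1 and 16.2 CPM. The adaptor gene *Blnk* dropped by 1.15 from 14.1 and 13.3 CPM to 5.60 and 7.10 CPM.

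Some epithelial genes rose by small amounts. Of all genes tested, 8.01% rose and 9.18% fell, and with sex as a term 3.17% rose and 3.48% fell. Of 5 tested keratins 4 rose (median 0.35). *Krt7* lost its call without Grhl3-null replicate 2 or WT replicate 2 (adjusted p = 0.26 and 0.22 by edgeR), and with sex as a term *Krt8* and *Krt18* rose. Of 20 basement membrane genes 11 rose and none fell (median 0.29). *Krt8* had 542 and 557 CPM in WT and 727 and 707 CPM in Grhl3-null, a log2 fold change of 0.35 ± 0.04 that kept its call with sex as a term (adjusted p = 0.0038 by edgeR). *Col4a1* and *Col4a2*, the network collagen of the basement membrane, rose by 0.45 and 0.59, from 112 and 123 CPM to 167 and 162 CPM and from 50.3 and 55.3 CPM to 84.2 and 79.2 CPM. The laminin chain *Lamb1* rose by 0.46 from 66.9 and 60.7 CPM to 91.4 and 88.7 CPM. All 4 kept their calls with sex as a term. With sex as a term 7 basement membrane genes rose and none fell. Of 30 junction and polarity genes 11 rose and *Cdh2* fell (median 0.12), of which the desmosomal genes *Dsg2* (0.47) and *Dsc2* (0.45) and the tight junction gene *Cgn* (0.51) were among those that rose, and 6 of the 12 calls were kept without each library. With sex as a term *Dsp*, *Dsg2* and *Dsc2* rose and *Cdh2* fell, and *Cgn* was not called (0.44, adjusted p = 0.056 by edgeR). Of 7 protease genes 3 rose (1 with sex as a term, *Prss8*), among them *Prss8* by 0.43 from 55.7 and 49.8 CPM to 77.7 and 68.6 CPM.

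Genes of cholesterol synthesis were lower. Of 19 tested, 16 fell and none rose, with a median of -0.41. *Fdps*, which makes farnesyl pyrophosphate, had 125 and 126 CPM in WT and 75.9 and 79.9 CPM in Grhl3-null, a fall of 0.73 ± 0.05 (adjusted p = 9.2e-10 by edgeR). *Idi1*, an isomerase of the same pathway, fell by 0.76 from 95.0 and 86.1 CPM to 55.8 and 54.3 CPM. Both kept their calls with sex as a term (adjusted p = 0.0073 and 0.042 by edgeR). In female cells 17 of the 19 fell (median -0.58), where 3.24% of all genes fell. In male cells 4 fell (median -0.21), where 7.01% of all genes fell. With sex as a term 10 fell (median -0.39), where 3.48% of all genes fell. For *Hmgcs1*, which feeds the pathway, male cells had 99.6 and 95.2 CPM in WT and 101 and 96.3 CPM in Grhl3-null, and female cells 138 and 121 CPM in WT and 66.7 and 71.8 CPM in Grhl3-null (difference between the sexes 0.85, adjusted p = 8.6e-06 by edgeR). In all other cells of the sample 19 of 19 genes fell (median -0.38, where 35.8% of all genes were called), and 3 of 19 differed more in hindgut cells than in the others. Other metabolic genes moved without a common direction. Of 16 glycolysis genes 6 rose, among them the glucose transporter *Slc2a1* by 0.42 and the hexokinase *Hk2* by 0.50, and *Gapdh*, *Pkm* and *Ldha* fell by 0.15, 0.17 and 0.14. *Pkm* lost its call without WT replicate 1 (-0.11, adjusted p = 0.057 by edgeR), and *Ldha* without WT replicate 1 or either Grhl3-null library and with sex as a term (-0.14, adjusted p = 0.20 by edgeR). The other glycolysis calls were kept without each library, and with sex as a term 4 genes rose and 2 fell.

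Of 25 replication and mitosis genes 2 rose and 7 fell, and none of these calls was kept without each library in turn. For this and the next lists, 8.01% of all genes rose and 9.18% fell. Of 13 tested p53 targets 4 fell and none rose, and 3 fell with sex as a term. Of 16 genes induced by dissociation 3 rose and 2 fell, of which *Ier3*, *Atf3* and *Hspa8* lost their calls when 1 library was left out, and with sex as a term only *Ier2* was called (-0.36). None of 8 neural and none of 6 notochord markers was called. Of 11 mesoderm markers 4 rose (*Foxf1*, *Hand2*, *Pdgfra* and *Pmp22*), with a summed level of 114 and 114 CPM in WT and 160 and 124 CPM in Grhl3-null, of which *Pmp22* was the most abundant. *Hand2* and *Pdgfra* lost their calls when 1 library was left out. With sex as a term 3 mesoderm markers rose, *Foxf1*, *Hand1* and *Pmp22*, and none fell (median 0.57). *Foxf1* rose by 1.08 over all cells and by 1.91 with sex as a term. Of 9 endothelial markers *Kdr* and *Etv2* rose, with neither kept without each library, and a summed level of 57.3 and 93.2 CPM in WT and 81.9 and 77.6 CPM in Grhl3-null. The erythroid markers summed to 33.5, 479, 27.9 and 31.2 CPM in WT 1, WT 2 and Grhl3-null 1 and 2, and 2677 of the 2794 *Hba-x* UMIs of WT replicate 2 came from 1 cell. No marker gene outside the criteria was at 0 in all 4 libraries. Of the 1301 cells, 257 held at least 2 markers of another lineage, and leaving them out gave 1909 calls in place of 2277.

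Genes were also compared across single cells. The values are Pearson's r over the 248 to 394 cells of a library, averaged over the 4 libraries, on log counts per 10000 of 9649 genes found in at least 20% of the cells. The cells share their library and differ in depth, so no p is given. *Nepn* had its highest r with the homeobox gene *Meis1* (0.54) and with *Spink1* (0.53), and its lowest with *Hoxc9* (-0.56), *Hoxc6* (-0.55) and *Hoxa9* (-0.54). *Hoxc9* had its highest r with *Greb1* (0.66), *Hoxc6* (0.65) and *Rspo3* (0.64) and had its lowest r with *Spink1* (-0.59). In each of the 4 libraries the r of *Nepn* and *Hoxc9* was between -0.58 and -0.53. *Cdx2* had an r of 0.00 with *Nepn*. Its highest r was with *Sp5* (0.45), a target of Wnt signals, then *Zfp503* (0.43), *Hoxaas3* (0.42), *Fgf8* (0.41) and *T* (0.39), and its lowest with *Csrp2* (-0.46), *Lrpap1* (-0.42), *Emb* (-0.41) and *Ttr* (-0.41). The X-linked genes *Rhox5* and *Trap1a* had an r of 0.87 with each other and -0.17 and -0.14 with *Nepn*. *Rbp4* and *Ttr* had an r of 0.83. The anchors *Nepn*, *Rhox5* and *Hoxc9* were chosen after the data were seen.

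**Figure D4:**
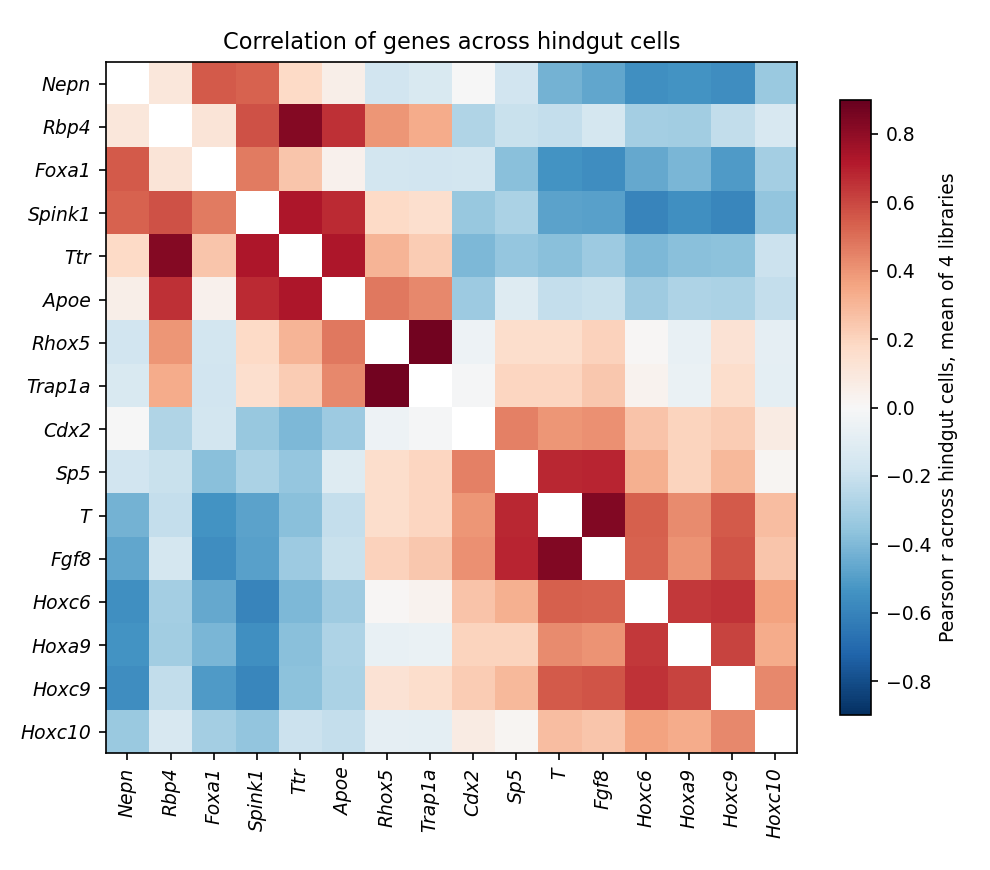
Pearson's r between 16 genes across hindgut cells, the mean of the values in 4 libraries, from blue (negative) through white to red (positive), with the diagonal left out. Nepn, Foxa1 and Spink1 are negative with T, Fgf8 and the 4 Hox genes shown, and Rhox5 with Trap1a has the highest value of the panel, 0.87.

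The genotype difference was also computed in hindgut cells with and without *Nepn*, a split added after the data were seen. Since *Nepn* admitted cells and differed by genotype itself, nothing is read from the split. In cells with a *Nepn* UMI 369 genes were called and in cells without one 1274, at 12418 and 11868 tested genes. *Nepn* was found in 45.7% and 41.9% of WT and 65.5% and 65.0% of Grhl3-null hindgut cells, and after thinning to 7500 UMIs in 33.0% and 29.4% against 51.5% and 54.0%. Both Grhl3-null libraries were above both WT libraries at either depth. Endothelial cells had a *Nepn* UMI in 4.27%.

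Only 26 cells met every criterion other than *Cdx2*, 7 and 2 in WT and 10 and 7 in Grhl3-null, at a median of 22748.5 UMIs per cell against 40737. The split between them and the hindgut cells is the one the criteria made, so the values are a description. Of 11641 genes 414 were called (3.56%), 200 higher (1.72%) and 214 lower (1.84%) in hindgut cells. Genes of the caudal end were on the side of *Cdx2*, with 11559 UMIs of *Fgf8* in hindgut and 4 in *Cdx2*-negative cells (log2 fold change 4.82), 11674 against 7 of *Rspo3* (4.00) and 8087 against 6 of *T* (3.71). Of 11 caudal endoderm genes 6 were higher and none lower (median 2.49, against 0.16 over all genes). Visceral endoderm genes were on the other side, with 14 of 19 lower in hindgut cells and none higher (median -2.80). *Fxyd2* (-3.97) and the liver-type genes *Apoa4* (-3.90), *Apoc3* (-3.84) and *Fgg* (-3.43) were among the 10 lowest. The genotype difference was set against that of the *Cdx2*-negative cells too, and 17 of 12248 genes (0.139%) differed, 13 above 0 (0.106%) and 4 below (0.0327%). The mitochondrial share of the 7 cells of WT replicate 1 had a median of 0.433%, against 4.10% in the hindgut cells of that library.

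Set against all other cells, the genotype difference of the hindgut differed for 1223 of 16845 genes (7.26%), 541 above 0 (3.21%) and 682 below (4.05%). Junction and polarity genes were above 0 in 13 of 30 and below in 1, with a median of 0.31 against -0.01 over all genes, and the protease genes *Prss8*, *Spint1*, *Spint2* and *F2rl1* in 4 of 8 (median 0.33). *Cldn4*, a claudin, had 36.0 and 33.6 CPM in WT and 32.5 and 33.6 CPM in Grhl3-null hindgut cells, and 3.35 and 2.92 CPM against 1.40 and 1.39 CPM in the other cells (difference 1.07, adjusted p = 1.3e-08 by edgeR). It was thus level in the hindgut and lower elsewhere. Hox groups 9 to 13 had 6 of 14 below 0 and none above (median -0.32), although 10 of 14 fell in the other cells too (median -0.87). *Foxd1* fell in the hindgut and had 27.0 and 26.6 CPM in WT and 32.6 and 29.5 CPM in Grhl3-null in the other cells (difference -1.53, adjusted p = 2.1e-07 by edgeR). *Cdh6* rose by 0.85 more in the hindgut than in the other cells (adjusted p = 1.8e-09 by edgeR).

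The same comparison was made against the surface ectoderm, the 695 *Epcam*-positive cells with at least 2 *Tfap2a* UMIs, which is the epithelium in which *Grhl3* is known to act. The comparison was added after the data were seen. Of 13224 genes, 1298 (9.82%) differed, 672 above 0 (5.08%) and 626 below (4.73%). In the surface ectoderm, where 12.9% of genes were called (5.44% higher and 7.43% lower in Grhl3-null), 11 of 29 junction genes were lower and 3 higher in Grhl3-null, and 6 of 8 protease genes were lower. In the hindgut 11 and 1 of 30 junction genes were higher and lower. The difference between the 2 epithelia was above 0 for 17 of 30 junction genes and below for 1 (median 0.48), and above 0 for 6 of 8 protease genes (median 0.72) and 2 of 6 keratins (median 0.80). *Gpx2* had 90.1 and 99.7 CPM in WT and 92.7 and 94.8 CPM in Grhl3-null hindgut cells, but 27.4 and 28.1 CPM in WT and 1.80 and 1.69 CPM in Grhl3-null surface ectoderm (difference 3.97 ± 0.17, adjusted p = 1.1e-11 by edgeR). *Upk1a*, a plaque protein of the urothelium, had 10.4 and 9.68 CPM in WT and 12.1 and 12.96 CPM in Grhl3-null hindgut cells, and 53.5 and 47.5 CPM against 7.94 and 8.12 CPM in surface ectoderm (difference 2.98, adjusted p = 1.6e-10 by edgeR). Neither gene was called in the hindgut. *Cdh1*, the epithelial cadherin, rose by 0.20 in the hindgut, a call lost without 1 library (highest adjusted p = 0.093 by edgeR), and fell by 0.51 in the surface ectoderm. Caudal genes went the other way, with 8 of 13 below 0 and none above (median -0.56). *Cyp26a1* had 117 and 125 CPM in WT and 89.8 and 102 CPM in Grhl3-null hindgut cells, and 24.2 and 22.5 CPM against 60.1 and 74.2 CPM in surface ectoderm (difference -1.85, adjusted p = 5.5e-11 by edgeR).

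**Figure D5:**
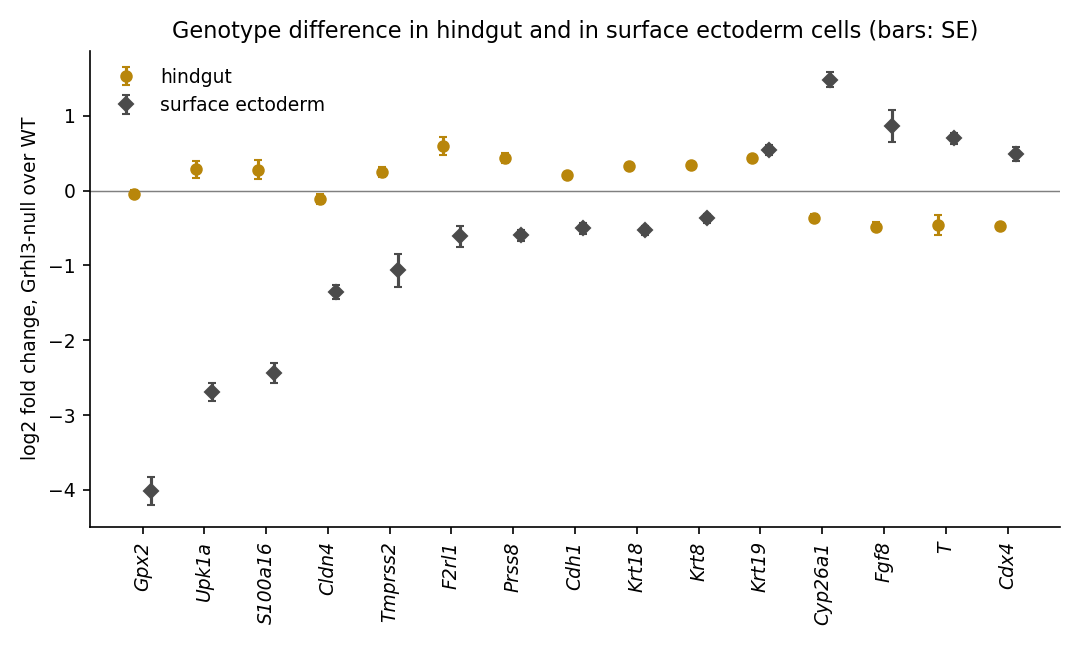
Log2 fold change (Grhl3-null over WT, with SE bars) of 15 genes in hindgut cells (gold circles) and in surface ectoderm cells (grey diamonds). Gpx2, Upk1a, S100a16 and Cldn4 lie near 0 in the hindgut and far below 0 in the surface ectoderm, and Cyp26a1 lies below 0 in the hindgut and above 0 in the surface ectoderm.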

How the data were processed

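Cells of the caudal parts of WT and Grhl3-null embryos were profiled by droplet-based 3' RNA sequencing. The authors deposited raw UMI counts per gene and cell, made with Cell Ranger on mm10. The counts were filtered and classed as the report states, and the UMIs of a class were summed within each library (2 libraries per genotype, 1 pool each). The libraries held 230556666, 224056649, 232903564 and 217559026 UMIs. Sums were tested with edgeR 4.0.16 (R 4.3.3), with TMM normalisation, filterByExpr, robust quasi-likelihood fits and Benjamini-Hochberg adjustment at 0.05. Differences of genotype effects were tested as interaction terms. Libraries were blocks where hindgut cells were set against another class of cells. The test between the sexes had no library block, although the male and female sums of a library share that library. Genes used to choose the cells were left out of all counts of calls. Shares were compared by an exact permutation test (scipy 1.17.1). A cell was male if 4 Y-linked genes gave 2 or more UMIs and *Xist* no more than 2, and female if *Xist* gave 3 or more and the Y-linked genes no more than 1.

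The members, gene lists and tests were chosen with earlier results of these data known. Genes were named if they chose the cells or belonged to a list (members past the test, the 4 most abundant and those that define absence), if they were among the 10 largest differences of each sign with a mean of at least 10 CPM (5 for interactions), among the 10 highest and 5 lowest correlations with *Cdx2*, or among the 20 highest ratios over other cells. Alternatives were DESeq2 1.42.0, library size alone, no filter, doublets removed and a mitochondrial limit of 5%. Further alternatives were the criteria applied after thinning to 7500 UMIs, cells of 1 sex, and each library left out. In the thinning alternative only the classes were set on thinned counts, and the full counts were summed. The automatic threshold of Scrublet (scanpy 1.11.5) marked 8, 9, 8 and 8 cells, under 0.5%, so the 5% of cells with the highest scores were removed instead, as an alternative. Each test across genes was tested on simulated data. The hindgut sums of replicate libraries were not identical within sampling noise (chi-square over degrees of freedom 2.72 in WT and 2.34 in Grhl3-null). Results for some genes are not reported here.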

Additional observations from a re-analysis of the deposited data

Results flagged for a closer look

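The following genes differed in their genotype effect (log2 Grhl3-null over WT) between 2 classes of cells, by the interaction test of edgeR. They were taken as the 5 largest of each sign, or all where fewer passed, apart from any not reported here.

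Between hindgut and all other cells, the difference was 1.17 for *Tagln*, 1.14 for *Gpx2*, 1.12 for *Rasgrp3*, 1.07 for *Cldn4* and 1.00 for *Pdlim1*. It was -1.53 for *Foxd1*, -1.41 for *Pax3*, -1.06 for *Fgf18*, -1.06 for *1700011H14Rik* and -1.03 for *Prrx1*. For *Gpx2* it was 0.093 in male cells, where it did not pass, and 2.09 in female cells. It was -0.080 with the criteria applied after thinning. Hindgut cells that then failed the criteria were counted among the other cells. For *1700011H14Rik* it was 0.68 in female cells. *Pdlim1*, a cytoskeletal adaptor, had 21.9 and 23.4 CPM in WT and 42.4 and 46.7 CPM in Grhl3-null hindgut cells, and stayed between 8.61 and 9.26 CPM in the other cells. *Pax3*, a gene of the dorsal neural tube and somites, was lower in Grhl3-null hindgut cells (19.7 and 22.8 CPM against 12.9 and 13.5 CPM) and higher in the other Grhl3-null cells (26.3 and 25.1 CPM against 41.0 and 42.3 CPM).

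Between hindgut and surface ectoderm, the difference was 3.97 for *Gpx2*, 3.03 for *Fam46a*, 2.98 for *Upk1a*, 2.72 for *S100a16* and 2.52 for *Tfap2c*. It was -3.45 for *Afp*, -1.85 for *Cyp26a1*, -1.77 for *Tcea3*, -1.58 for *Lpl* and -1.52 for *Pax3*. For *Fam46a* it was -4.51 with the criteria applied after thinning, and 1.64 in male cells, where it did not pass.

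Between hindgut and the 26 *Cdx2*-negative gut cells, 17 of 12248 genes (0.139%) passed, and the difference was 4.43 for *Apoa4*, 4.20 for *Hist1h1d*, 3.31 for *Dio3*, 3.26 for *Pyy* and 2.48 for *Amn*, and -12.15 for *Sox17*, -3.04 for *Ptn*, -2.98 for *Col4a2* and -2.79 for *Col4a1*. These values rest on 2 to 10 *Cdx2*-negative cells in a library, and several changed direction in other settings. *Hist1h1d* was -8.45 without WT replicate 1. In male and female cells *Apoa4* was -7.75 and -6.83, and *Amn* was -11.6 and -9.82. The value of *Sox17* had an SE of 3.00, so its size is uncertain and is no measured fold.

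Between male and female hindgut cells, which come from different embryos, the difference was 3.41 for *Clgn*, 3.16 for *Kcnk2*, 3.14 for *Sema3c* and 2.78 for *Vtn*, and -1.85 for *Sct*, -1.80 for *Xlr3b*, -1.77 for *Gramd1b*, -1.74 for *Msx2* and -1.67 for *Agtr1a*. *Sema3c*, a secreted guidance cue, had 8.62 and 5.32 CPM in male WT and 21.3 and 25.3 CPM in male Grhl3-null cells, against 18.5 and 12.9 CPM and 5.02 and 6.07 CPM in female cells. The genotypes thus lay in opposite order in the 2 sexes.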

How the results depend on the processing

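The 2277 calls between genotypes in hindgut cells were 860 with DESeq2, 1029 after thinning, 986 in female cells, 369 in cells with and 1274 in cells without a *Nepn* UMI, 825 with sex as a term, and 1259 to 2325 with 1 library left out (1259 without Grhl3-null replicate 1 and 1447 without Grhl3-null replicate 2). Of the 860 calls of DESeq2, 849 were among the 2277. In this section, after thinning means that the criteria were applied to thinned cells, whose full counts were summed. The hindgut cells then numbered 147 and 119 in WT and 231 and 235 in Grhl3-null. With the replicate number as a block the count was 2550. Same-numbered libraries did not deviate together (r = 0.056 over 13252 genes), so they share only a number.

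The 414 genes that differed between hindgut and *Cdx2*-negative cells were 200 with DESeq2, 141 at the mitochondrial limit of 5%, 667 after thinning, 81 in male and 202 in female cells, and 203 to 373 with 1 library left out. For the genotype difference between these classes the count of 17 became 3, 8, 41, 4 and 0 under the same settings, of which 3, 0, 6, 1 and 0 were among the 17, and 4 to 29 with 1 library left out. Against all other cells, the 1223 genes were 374 with DESeq2, 768 at the mitochondrial limit, 629 after thinning, 699 in female cells, 353 with and 711 without a *Nepn* UMI, and 313 to 1288 with 1 library left out. Against surface ectoderm, the 1298 genes were 210 with DESeq2, 172 after thinning, 821 in female cells and 853 to 1081 with 1 library left out. The 786 genes whose genotype difference differed between the sexes were 312 with DESeq2 and 322 to 609 with 1 library left out.

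Reversals were mostly in the comparison with the *Cdx2*-negative cells, of which the main setting had 26. After thinning that class was another set, with 25 and 44 cells in WT and 82 and 66 in Grhl3-null. In this comparison *Apoa4* was -2.46 after thinning, -7.75 in male and -6.83 in female cells. *Hist1h1d* was -8.45 without WT replicate 1, up to 4.75 without another library, and -6.86 in male cells. *Amn* was -1.37 after thinning, -11.6 in male and -9.82 in female cells, and *Ptn* was 0.15 after thinning. Against all other cells *Gpx2* was -0.080 after thinning and *1700011H14Rik* was 0.68 in female cells. Against surface ectoderm *Fam46a* was -4.51 after thinning. The *Cdx2*-positive share of gut cells differed by -1.34 to 0.338 points with 1 library left out. The difference was -3.64 points with no filter on cells, and -3.30 points after thinning, where the shares were 79.2% in WT and 75.9% in Grhl3-null. The causes were not tested.

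Of the single genes under all settings, 1042 values kept their direction and their side of the threshold, 159 no longer passed it and 12 reversed. The difference in the share of hindgut cells was 2.27 to 3.31 points over the alternatives. With 1 pool of each genotype, differences between embryos, sexes, stages or dissections cannot be told apart from genotype, and the 2 to 10 *Cdx2*-negative cells of a library limit any statement on them.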

Other observations

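*Npnt*, a ligand of integrins in the basement membrane, had 6.37 and 7.98 CPM in male WT and 24.0 and 22.8 CPM in male Grhl3-null hindgut cells, but 13.4 and 13.3 CPM in female WT and 5.88 and 9.88 CPM in female Grhl3-null cells. The difference between the sexes in the genotype effect was 2.42 (adjusted p = 2.0e-06 by edgeR). *Id2*, a target of Bmp signals, had 434 and 442 CPM in WT and 517 and 538 CPM in Grhl3-null, with a difference between the sexes of -0.73 (adjusted p = 0.0029 by edgeR). *Lpl*, the lipase of lipoprotein particles, fell by 1.61 in hindgut cells, from 11.4 and 10.4 CPM to 3.84 and 3.44 CPM, and with sex as a term its log2 fold change was -1.49 but not called (adjusted p = 0.063 by edgeR).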
